A study of Mus musculus with 4 samples.

Results

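Lin28a and Lin28b, RNA-binding proteins linked to let-7, and the core enzymes that make and use microRNAs were followed from mouse embryonic stem cells to epiblast-like tissue. Of 10 genes named by role, 9 were measured among 18194 genes, through 28 of the 34958 probe sets that the platform annotation assigns to 1 gene symbol. Igf2bp2 had no such probe set and was not analysed here. Where several probe sets measured a gene, the one brightest on average across the arrays gave the gene's value. For the 9 measured genes the others are given beside it, and for genes of the lists further below only in some cases. RefSeq places Lin28a on chromosome 4, Igf2bp3 on 6, Trim71 on 9, Lin28b on 10, Igf2bp1 on 11, Dicer1 on 12, Drosha and Ago2 on 15 and Dgcr8 on 16.

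RNA from 2 stem cell samples (day 0) and from 2 samples taken on day 3 of SFEBq was measured on 4 Affymetrix arrays. SFEBq is a serum-free culture in which dissociated stem cells form floating aggregates. The day 3 tissue is described as epiblast-like, the epiblast being the layer that gives rise to the embryo proper, although 1 label calls the cells of both days differentiated. No strain, genotype, cell line or added factor is named for either day in the sources used here, so time, aggregation and medium cannot be told apart. The samples of a day are called duplicates with no mention of separate cultures, so the p-values rest on a spread between samples that may be purely technical.

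Lin28 proteins bind the precursors of the let-7 microRNAs and keep them from being processed, in part by recruiting enzymes that add uridines to the precursor and so mark it for decay. The pathway was found through worm genes that time development, called heterochronic genes, of which lin-28, lin-41 (Trim71 in the mouse) and let-7 are the best known. In microRNA synthesis Drosha with its partner Dgcr8 cuts the primary transcript in the nucleus, Dicer1 cuts the exported hairpin, and Argonaute proteins such as Ago2 carry the mature strand to target messenger RNAs. Lin28a is known as abundant in pluripotent cells, and let-7 as a microRNA family that accumulates when cells differentiate. The arrays measured messenger RNA, so no microRNA level is reported.

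The mature strands that this pathway controls are shown because a gene list below is of let-7 targets. The lists were chosen by role, and target transcripts were not searched for the seed. Their seed, bases 2 to 8, is in capitals and pairs with targets. In the RefSeq table for GRCm38.p6, 13 entries for mature microRNAs carry the seed GAGGUAG, with 11 distinct sequences.
mmu-let-7a-5p: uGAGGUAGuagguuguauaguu
mmu-let-7g-5p: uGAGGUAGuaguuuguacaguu

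The hairpins below show what Lin28 proteins are known to recognise, a GGAG stretch in the loop. Letters in capitals mark GGAG where it lay between the mature arms. It was found there in 9 of 11 let-7 hairpins of the table, and in 2, those of Mirlet7b and Mirlet7c-2, it was not. In 8 of the 9 it lay 4 bases before the annotated 3′ arm and in Mirlet7g 3 bases before it. Anywhere in a hairpin, GGAG occurred in 44.5% of the 1005 hairpins of all microRNAs, so these letters alone are common.
Mirlet7a-1, chr13:48538179-48538272, minus strand: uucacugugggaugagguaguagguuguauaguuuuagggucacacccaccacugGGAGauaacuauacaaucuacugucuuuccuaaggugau
Mirlet7g, chr9:106178840-106178927, plus strand: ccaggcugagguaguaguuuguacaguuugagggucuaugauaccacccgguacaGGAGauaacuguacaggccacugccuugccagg
Mirlet7b, chr15:85707319-85707403, plus strand: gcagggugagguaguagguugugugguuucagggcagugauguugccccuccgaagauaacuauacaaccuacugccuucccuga

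The labelled states were checked on marker genes. All 12 naive pluripotency markers were lower and all 11 measured epiblast markers higher at day 3, with Nanog at 12.83 and 10.11, Zfp42 at 13.16 and 10.63, Fgf5 at 3.62 and 11.18, Otx2 at 10.05 and 12.07 and Dnmt3b at 12.54 and 13.91 (means of 2 arrays, log2, day 0 then day 3). Of 5 general pluripotency markers 4 were lower. Tdgf1 fell most, from 13.13 to 10.19, Sox2 was at 13.07 and 12.42, and Pou5f1 was at 12.64 on both days. Of 19 measured visceral endoderm markers 17 were higher and 0 lower at day 3, and the sum of their log2 values was 125 to 127 on the day 0 arrays and 176 to 177 on the day 3 arrays. None was listed at 0, which log2 array values do not show, and the lowest mean at day 0 was that of Apob (4.36). The markers of neural progenitors (3 higher and 2 lower of 8), trophectoderm (4 and 3 of 9) and fibroblasts (3 and 3 of 12) went both ways. The shares called in these 3 lists were 62.5%, 77.8% and 50%. Of all genes 42.3% were called, 20.9% higher and 21.4% lower. Without day 3 replicate 2, 2 general pluripotency and 3 neural markers were called. The part of visceral endoderm RNA in the results that follow was not tested, and in such bulk samples fewer cells of a type and less RNA per cell cannot be told apart.

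Of the 9 measured genes, Lin28a, Lin28b, Igf2bp3 and Ago2 were higher at day 3, Dicer1 and Drosha were lower, and Trim71, Igf2bp1 and Dgcr8 were not called. The changes were small apart from those of the Lin28 genes and Dicer1. Only Lin28a was called with an estimated difference of at least 2-fold, as were 5.93% of all genes, with 4.25% at least 2-fold lower. Such a call tests for any difference, not for one above 2-fold. In a limma test against a 2-fold difference Lin28a did not pass (adjusted p = 0.16). The threshold for a call was an adjusted p of 0.05 in limma, with Benjamini-Hochberg adjustment over all 18194 genes. The 6 called members stand beside a background of 42.3% of all genes called, 20.9% higher and 21.4% lower, and of 62.8% among the 9097 genes above the median level, where 8 of the 9 members lay. Their median difference was -0.03 on the log2 scale and their median absolute difference 0.23, against 0.01 and 0.21 for all genes. For 8 of 9 members both arrays of one day lay above both of the other, as they did for 69% of all genes.

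**Figure D1:**
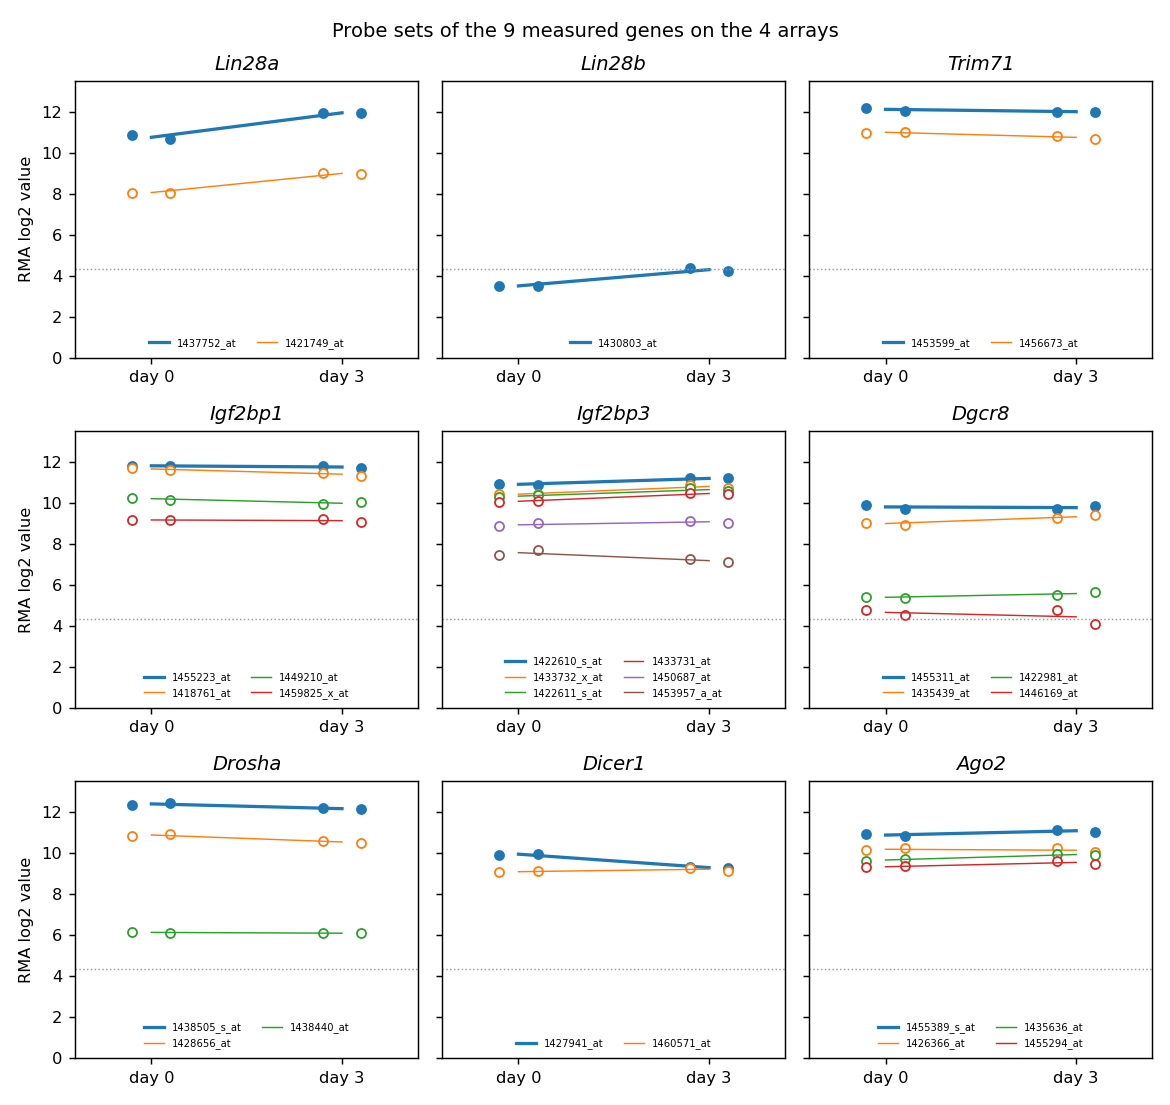
RMA log2 value of each probe set on each of the 4 arrays (points) with a line joining the means of the 2 arrays a day, in 1 panel per gene. Filled points and thick lines are the probe set kept for the gene, and the dotted line is the mean of the arrays' first quartiles. Both Lin28a probe sets climb, Lin28b lies near the dotted line or below it, and of the Dicer1 probe sets only the kept one falls.

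Lin28a, the Lin28 gene of pluripotent cells, was at 10.86 and 10.65 on the log2 scale in the day 0 samples and at 11.95 in both day 3 samples. Both day 3 arrays lay above both day 0 arrays by far more than the spread within a day. The difference of 1.20 ± 0.07 (SE, n = 2 a day) corresponds to a ratio of 2.29 (95% interval 2.05 to 2.56, adjusted p = 3.1e-07, limma), larger in size than that of 92.1% of genes. The second Lin28a probe set, 1421749_at, was at 8.06 in both day 0 samples and at 9.01 and 8.97 at day 3, a rise of 0.94 ± 0.08 (adjusted p = 1.7e-05 over all probe sets). Both probe sets of the gene thus rose, with array values that did not overlap. A rise above 2-fold was not established. The first probe set did not pass a limma test against a 2-fold difference (adjusted p = 0.16), and the ratio of the second was 1.91. The call of the first was lost in an unmoderated test per gene (adjusted p = 0.055), where 2 residual degrees of freedom carry the test.

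Lin28b, the paralog that acts on the same precursors, has 1 probe set here. It was at 3.49 and 3.51 at day 0 and at 4.36 and 4.23 at day 3. The rise of 0.79 ± 0.12 (SE, n = 2 a day, adjusted p = 3.0e-04, limma) did not overlap between days, a ratio of 1.73 (95% interval 1.44 to 2.09). These values are at the low end of the arrays: the day 0 mean exceeded 12.1% of probe sets and the day 3 mean 24.5%. The arrays' first quartile was 4.30 to 4.33, and whether the Lin28b signal exceeded background was not tested.

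The sequence before the start of the 2 Lin28 genes is given because both genes rose, with that of Dicer1, the largest called fall, for comparison. Each window is the 250 bases upstream of the RefSeq start (GRCm38.p6), printed in the direction of the gene. Capitals mark matches on either strand to TATAAA (the TATA box), to CCAAT (the box known to be bound by NF-Y), to CACGTG (the E-box of Myc-type factors), to ATGCAAAT (the octamer known for Pou5f1) or to GGGCGG (the GC box known for Sp1). None of the 5 contains another.
Lin28a, chr4:134018817-134019066, minus strand: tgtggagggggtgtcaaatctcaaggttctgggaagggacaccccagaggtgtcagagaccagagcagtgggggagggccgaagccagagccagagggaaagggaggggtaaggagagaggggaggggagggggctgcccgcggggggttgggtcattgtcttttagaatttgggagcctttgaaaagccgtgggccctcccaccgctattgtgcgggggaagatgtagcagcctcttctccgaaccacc
Lin28b, chr10:45470202-45470451, minus strand: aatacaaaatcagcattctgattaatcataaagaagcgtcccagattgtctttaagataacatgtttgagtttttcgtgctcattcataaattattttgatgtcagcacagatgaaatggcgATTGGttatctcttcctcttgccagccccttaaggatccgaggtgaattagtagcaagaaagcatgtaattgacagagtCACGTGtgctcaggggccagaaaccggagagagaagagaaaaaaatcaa
Dicer1, chr12:104751953-104752202, minus strand: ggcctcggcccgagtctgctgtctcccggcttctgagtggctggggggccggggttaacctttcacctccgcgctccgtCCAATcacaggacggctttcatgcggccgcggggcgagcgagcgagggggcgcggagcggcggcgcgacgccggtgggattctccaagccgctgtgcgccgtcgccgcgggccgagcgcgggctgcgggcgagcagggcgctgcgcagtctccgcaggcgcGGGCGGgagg

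The Lin28a and Lin28b windows differ in composition, with a G and C content of 61.2% and 39.2%, while that of Dicer1 has 76%, against a median of 52.4% over 32851 windows. Dicer1 has 39 CpG dinucleotides, Lin28a 7 and Lin28b 6, where the median window has 6. The Lin28a window holds none of the 5 motifs. That of Lin28b holds CACGTG 43 bases before the start, as 6.02% of all windows do, and 1 CCAAT, found in 33.8%. Dicer1 holds 1 CCAAT and 1 GGGCGG, the latter present in 32.7% of windows. Of the 8 members with a window (Igf2bp2 among them), 5 hold CCAAT, 4 hold GGGCGG and 2, Igf2bp3 and Lin28b, hold CACGTG. The TATA box was found in 0 of them and in 12.4% of all windows, the octamer in 0 and in 1.6%. A match describes these letters only.

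Trim71, the mouse counterpart of lin-41 and a let-7 target that represses messenger RNAs, was at 12.18 and 12.06 at day 0 and at 12.01 and 12.00 at day 3. The arrays did not overlap, but the difference of -0.11 ± 0.06 (SE, n = 2 a day) was not called (adjusted p = 0.14, limma, 95% interval -0.24 to 0.013). Its second probe set, 1456673_at, was at 10.98 and 11.02 and then at 10.81 and 10.68, and fell by 0.25 ± 0.07 (adjusted p = 0.018 over all probe sets). That call was lost in 4 of 10 alternatives, among them those without day 0 replicate 2 (-0.23, adjusted p = 0.059) or day 3 replicate 2 (-0.18, adjusted p = 0.17). The 2 probe sets therefore point the same way, with 1 of them called as reported. Averaging both probe sets gave a called fall (-0.18, adjusted p = 0.024), as did the kept one when day 0 replicate 2 was left out (-0.17, adjusted p = 0.049).

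The Igf2bp genes encode RNA-binding proteins that stabilise messenger RNAs and are themselves let-7 targets. Igf2bp1 was at 11.80 and 11.82 at day 0 and at 11.80 and 11.70 at day 3, and its difference of -0.06 ± 0.06 (SE, n = 2 a day) was not called (adjusted p = 0.46, limma, 95% interval -0.19 to 0.067). The other 3 probe sets ranged from -0.26 to -0.03, with 1418761_at and 1449210_at called lower. These calls were lost in 5 and 7 of 10 alternatives, the first without day 0 replicate 1 (-0.19) or day 3 replicate 2 (-0.18), the second without day 0 replicate 1 (-0.17), day 3 replicate 1 (-0.17) or day 3 replicate 2 (-0.28). All 4 Igf2bp1 differences were thus negative and small.

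Igf2bp3 was at 10.92 and 10.89 at day 0 and at 11.20 in both day 3 samples, a rise of 0.29 ± 0.06 (SE, n = 2 a day, adjusted p = 0.0018, limma). Both day 3 values were above both day 0 values. Of its 6 probe sets 4 were called higher, by 0.29 to 0.38, and 1450687_at was at 0.15 and not called. The sixth, 1453957_a_at, went the other way, from 7.46 and 7.68 to 7.25 and 7.11, and was called lower by 0.39 ± 0.11 (adjusted p = 0.026 over all probe sets). That call was lost without day 0 replicate 2 (-0.28), day 3 replicate 1 (-0.46) or day 3 replicate 2 (-0.32), and the call of 1422611_s_at, higher by 0.32, without day 3 replicate 1 (0.24). The identifier class of 1453957_a_at marks probes that match alternative transcripts of 1 gene. The kept probe set, 1422610_s_at, and also 1433732_x_at and 1422611_s_at are of classes that can match several transcripts. Outside these classes, 1433731_at was called higher by 0.38. Igf2bp1 and Igf2bp3 were therefore called differently by the brightest probe sets, but the difference between the genes was not tested.

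Drosha and Dgcr8 form the nuclear enzyme pair. Drosha, the RNase that cuts primary transcripts, was at 12.34 and 12.46 at day 0 and at 12.17 and 12.15 at day 3, and fell by 0.23 ± 0.06 (SE, n = 2 a day, adjusted p = 0.0068, limma). Its second probe set, 1428656_at, fell from 10.82 and 10.94 to 10.59 and 10.49, by 0.34 ± 0.07, and a dim one, 1438440_at, had a difference of -0.04 and was not called. The day 3 values of the 2 brighter probe sets were below their day 0 values, and 1428656_at lost its call without day 3 replicate 2 (-0.29, adjusted p = 0.074). The call of the gene was lost without the intensity trend (adjusted p = 0.076), in an unmoderated test (0.16) and without day 3 replicate 1 (0.052) or day 3 replicate 2 (0.068), at differences of -0.23, -0.23, -0.24 and -0.22.

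Dgcr8, the RNA-binding partner of Drosha, was at 9.91 and 9.69 at day 0 and at 9.69 and 9.85 at day 3, so the days overlapped. The difference was -0.03 ± 0.09 (SE, n = 2 a day, adjusted p = 0.82, limma, 95% interval -0.23 to 0.17). The next probe set, 1435439_at, was called higher by 0.33 ± 0.08 (adjusted p = 0.013), from 9.04 and 8.94 to 9.26 and 9.39, a call lost without day 3 replicate 2 (0.27). The 2 dimmer probe sets, at 0.18 and -0.22, were not called. The 4 probe sets of Dgcr8 thus gave no common direction.

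Dicer1, which cuts the exported hairpin to the mature length, was at 9.93 and 9.96 at day 0 and at 9.31 and 9.27 at day 3. This fall of 0.66 ± 0.07 (SE, n = 2 a day) was the largest called fall among the members, to 0.63 of the day 0 value (95% interval 0.57 to 0.70, adjusted p = 2.1e-05, limma). The spread within a day was at most 0.03 (SD), so both day 3 arrays lay clearly below both day 0 arrays. Its second probe set, 1460571_at, was at 9.06 and 9.12 and then at 9.28 and 9.14, a difference of 0.12 ± 0.08 that was not called (adjusted p = 0.34 over all probe sets). The probe sets of Dicer1 therefore disagreed, and their mean gave a difference of -0.27 (adjusted p = 0.010).

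Ago2, the Argonaute that slices targets, was at 10.91 and 10.84 at day 0 and at 11.14 and 11.04 at day 3, a rise of 0.21 ± 0.06 (SE, n = 2 a day, adjusted p = 0.020, limma). Of its other probe sets, 1435636_at was called higher at 0.27 ± 0.07, 1455294_at was at 0.21 and not called, and 1426366_at was at -0.05 and not called. The call of 1435636_at was lost in 5 of 10 alternatives, among them those without day 0 replicate 1 (0.24), day 3 replicate 1 (0.23) or day 3 replicate 2 (0.30). The Ago2 difference was positive for 3 of 4 probe sets. The kept probe set is of the class that can match several transcripts. Without that class the next brightest, 1426366_at, alone gave the gene's difference of -0.05 (adjusted p = 0.70). The probe sets 1435636_at and 1455294_at, both positive, are also outside that class. Leaving out day 0 replicate 2 also ended the call (0.18, adjusted p = 0.074), and so did leaving out day 3 replicate 1 (0.16, adjusted p = 0.17), averaging the probe sets (0.16, adjusted p = 0.087), the fit without the intensity trend (adjusted p = 0.099) and the unmoderated test (0.17).

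Over the 28 probe sets, 10 were called higher and 7 lower, 60.7% in all, against 30.9% of the 45037 probe sets on the arrays. For 24 of the 28 the days did not overlap, as for 62.2% of all. Both background shares include dim probe sets. Among genes, 62.8% of those above the median level were called against 42.3% of all. No such share was computed for probe sets, so the members are not compared here with probe sets of like level. With day 3 replicate 1 left out 11 member probe sets were called, and with day 3 replicate 2 left out 8. The plot of probe set differences shows that Lin28a and Lin28b stand apart from the rest on the higher side and 1 Dicer1 probe set on the lower side.

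**Figure D2:**
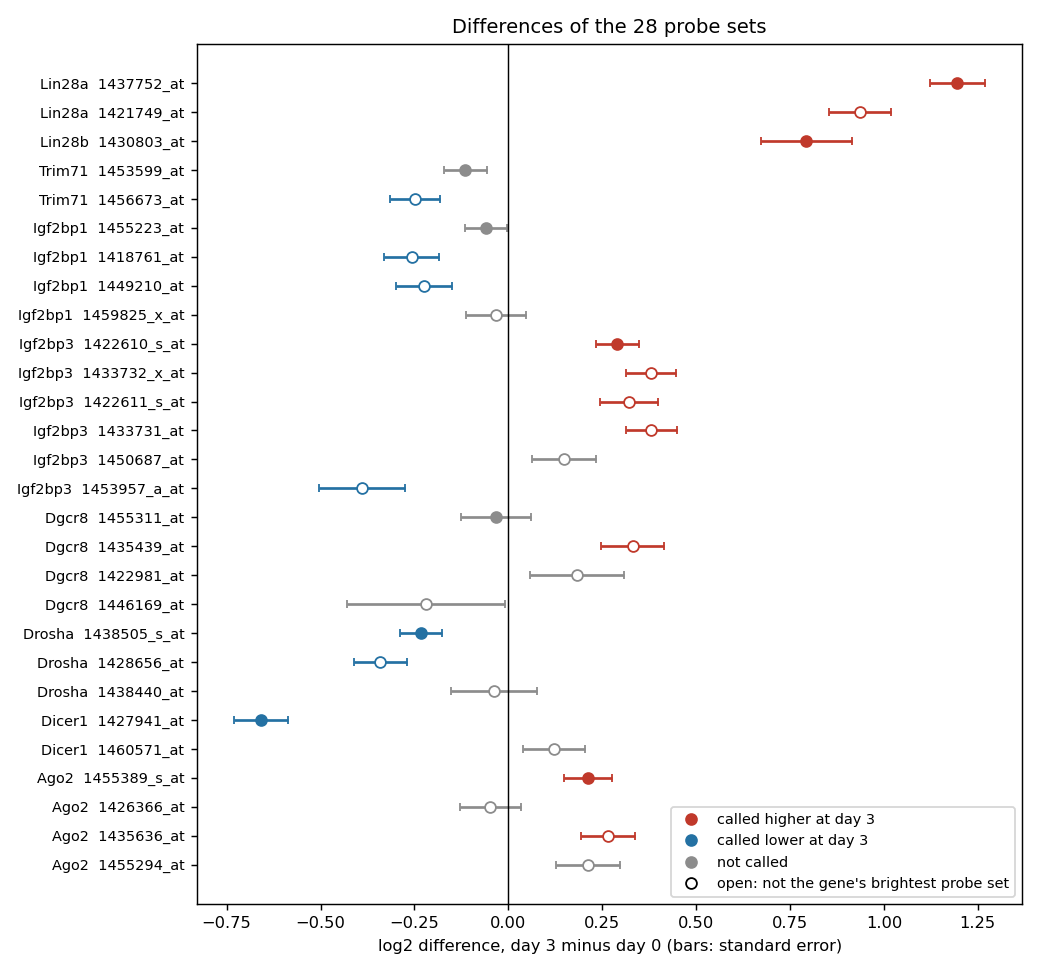
Log2 difference, day 3 minus day 0, of the 28 probe sets (points) with the standard error of the fit (bars), coloured by the call over all probe sets. Filled points are the probe sets kept for a gene. Lin28a at 1.20 and 0.94 and Lin28b at 0.79 lie furthest right, Dicer1 at -0.66 furthest left, and all others lie between -0.39 and 0.38.

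Where a gene's probe sets are used 1 per gene, the median level of the arrays was 0.13 higher at day 3 (7.06 against 6.92). The median of the gene differences was nevertheless 0.01, and over all probe sets the medians of the 4 arrays were 5.78 to 5.79. Centring the arrays on the median over genes changed the split of calls from 3804 higher and 3901 lower to 2866 higher and 5652 lower. Relative to that shift, the differences of Lin28a (1.06), Lin28b (0.66), Igf2bp3 (0.16), Drosha (-0.37) and Dicer1 (-0.79) were still called in the same direction. Ago2 was then at 0.08 and not called (adjusted p = 0.36), while Trim71 (-0.25, adjusted p = 0.0050) and Igf2bp1 (-0.19, adjusted p = 0.018) were called lower. The calls of these 3 genes thus depend on whether this centring is applied.

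**Figure D3:**
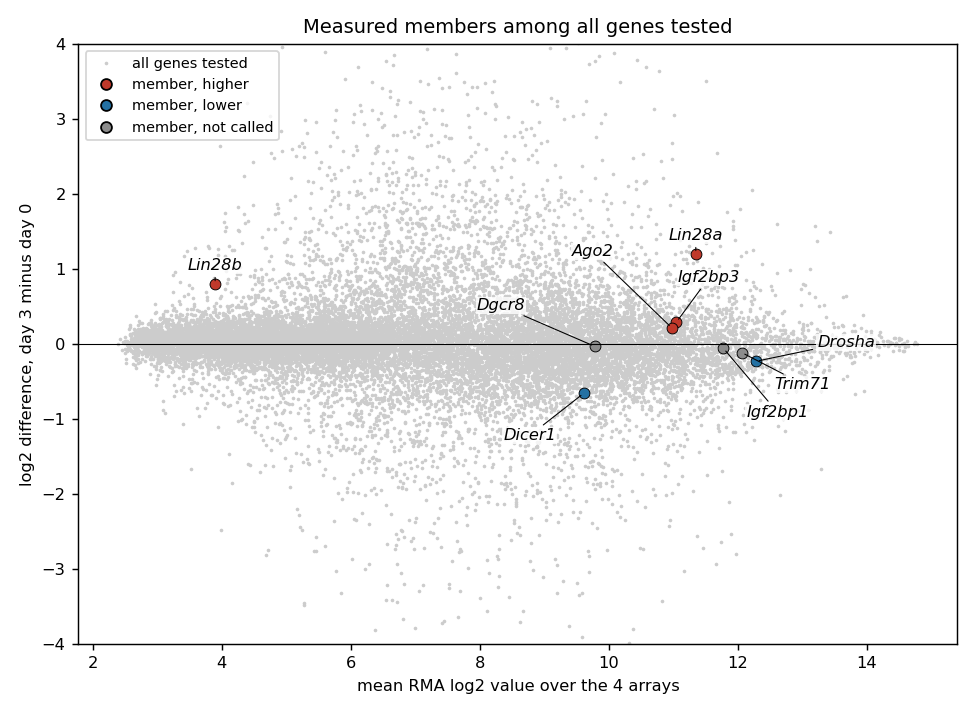
Log2 difference, day 3 minus day 0, against the mean log2 value over the 4 arrays for 18194 genes (grey) and the 9 measured members (coloured by call). The axis omits 52 genes with a difference of over 4 in size. Lin28a is the highest member at 1.20, Lin28b lies far left among dim genes, and Trim71, Igf2bp1 and Dgcr8 lie close to 0.

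Partners of the members in making microRNAs and in silencing went both ways, with 7 of 37 measured genes higher, 12 lower and 18 not called, and a median difference of 0.05. The 51.4% called lie between the 42.3% of all genes and the 62.8% of genes above the median level, where 34 of the 37 lay. The 2 double-stranded RNA-binding partners of Dicer1 were called in opposite directions. Prkra rose from 7.23 to 8.92, by 1.69 ± 0.09 (SE), while Tarbp2 fell from 10.39 to 9.89, by 0.50 ± 0.06, with both of its probe sets called lower. The second probe set of Prkra was at 2.75 and 2.68, at the bottom of the arrays, and not called. Xpo5, which exports the hairpin from the nucleus, was at 9.68 and 9.84, a difference of 0.16 that was not called (adjusted p = 0.091, limma). Without day 3 replicate 2, 10 genes of this group were called, and 12 without the intensity trend.

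Of the other Argonaute genes, Ago1 (-0.15), Ago3 (-0.24) and Ago4 (0.04) were not called. Ago4 was at 3.97 and 4.01, below the arrays' first quartile of 4.30 to 4.33, so little can be read from its difference. Ago3, at 6.61 and 6.37, has 5 probe sets and Ago4 has 2, of which only the brightest is given. Tnrc6 proteins link Argonautes to the enzymes that shorten and decap messenger RNAs. Tnrc6b rose by 0.79 ± 0.09 (SE) with all 3 probe sets called higher, and Tnrc6c by 0.36 ± 0.08, while Tnrc6a was at 0.13 and not called (adjusted p = 0.15, limma). Mov10, an RNA helicase that binds Argonaute complexes, fell from 8.98 to 7.63, by 1.35 ± 0.10, and its second probe set, at 6.37 and 6.39, was not called. Dcp2, the decapping enzyme, fell by 0.78 ± 0.07, with its other probe set at -1.27. These are the 5 largest differences of the group, with Prkra and Tarbp2.

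Genes grouped here under uridylation and decay of let-7 precursors were called in 11 of 14 cases (78.6%), 4 higher and 7 lower, with a median of -0.18. The group includes related enzymes and RNA-binding proteins, and a role in let-7 decay was not tested for any of them. Of all genes 42.3% were called, and 62.8% of those above the median level, where 13 of the 14 lay. The uridine-adding enzyme genes Tut4 and Tut7 were called in opposite directions. Tut4 was at -0.26 ± 0.07 (SE, adjusted p = 0.015, limma). Tut7 was at 0.24 ± 0.09 (adjusted p = 0.046), close to the threshold of 0.05. Tut4 has 5 probe sets and Tut7 has 2, of which only the brightest is given here. Dis3l2, the exonuclease that degrades uridylated precursors, rose by 0.59 ± 0.11, from 6.72 to 7.31, by 1 of its 3 probe sets. Msi1, an RNA-binding protein of neural progenitors reported to act with Lin28, rose by 1.22 ± 0.13, again by 1 of 3 probe sets. Zc3h7b rose by 0.68 ± 0.07 and its relative Zc3h7a fell by 0.61 ± 0.11. Zc3h12a, an RNase that cuts stem loops, fell by 0.96 ± 0.12, from 6.13 to 5.17. For each of the last 3 genes the second probe set was not called. Averaging probe sets left Dis3l2 at 0.25 and uncalled, and leaving out the probe set class that can match several transcripts left Zc3h7a at -0.18 and uncalled. With day 3 replicate 1 left out 7 genes of the list were called, with day 3 replicate 2 left out 6, and with no intensity trend 7.

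Of 28 measured genes listed here as let-7 targets, 14 were higher, 7 lower and 7 not called. Whether let-7 acts on them in these cells was not tested, nor were they searched for seed matches. The median of the list was 0.28 and its median absolute difference 0.49. The 75% called stand beside 42.3% of all genes and 62.8% of those above the median level, where 21 of the 28 lay, and the unmoderated test called 7. Called changes reached 2-fold for 5 of the higher genes and 1 of the lower, against 5.93% and 4.25% of all genes. Limd2 rose most, from 9.64 to 12.32, by 2.68 ± 0.06 (SE), and all 4 of its probe sets were called higher. Adamts15 (1.48 ± 0.11), Gatm (1.24 ± 0.15) and Bach1 (1.06 ± 0.06) also rose, as did Nr6a1, a nuclear receptor of the differentiating epiblast (1.21 ± 0.08, with 4 of 5 probe sets higher). Myc fell from 10.66 to 9.15, by 1.51 ± 0.10, while its relative Mycn rose by 0.47 ± 0.07. Hmga2, the chromatin protein gene often used as a readout of let-7, fell by 0.45 ± 0.07. The list thus held called genes of both directions, and Adamts15 and Gatm were dim at day 0 (5.36 and 4.80).

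**Figure D4:**
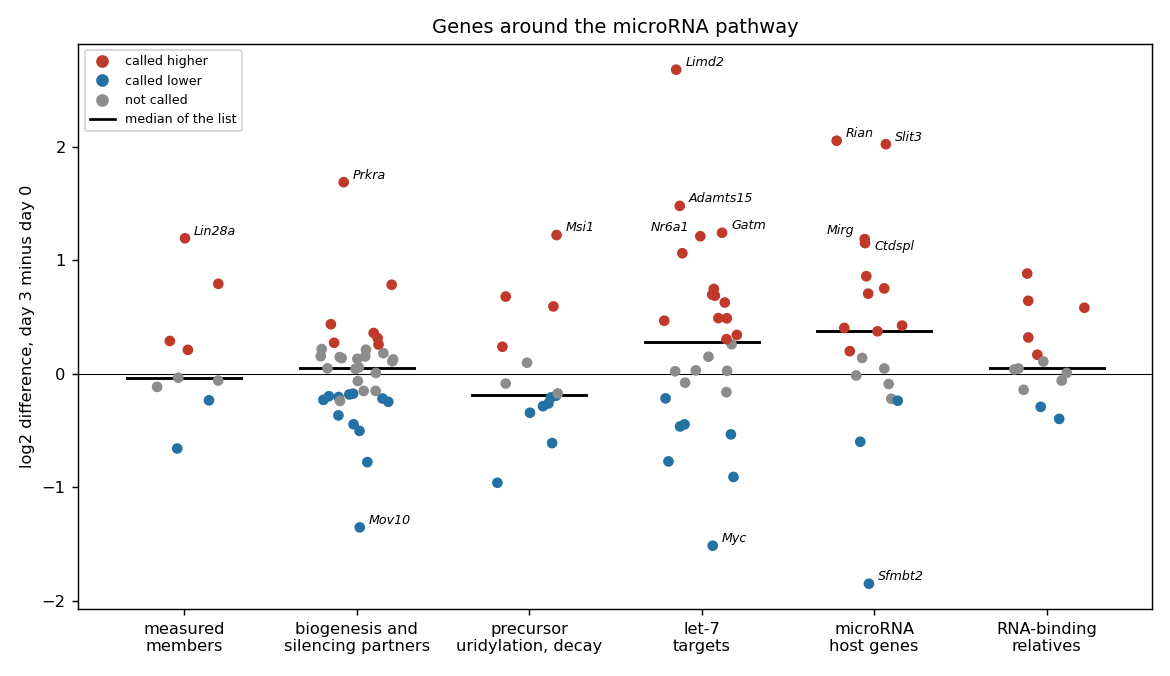
Log2 difference, day 3 minus day 0, of each measured gene (points, coloured by call) in the members and 5 gene lists, with each list's median (bar). Each list holds called genes of both directions, with medians from -0.18 (precursor decay) to 0.38 (microRNA host genes).

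Of 19 measured genes whose transcripts or introns carry microRNAs, 11 were higher, 3 lower and 5 not called, with a median of 0.38. The 73.7% called stand beside 42.3% of all genes and 62.8% of those above the median level, where 16 of the 19 lay, and the unmoderated test called 5. Rian and Mirg, non-coding transcripts of 1 imprinted domain that carry small RNAs, rose by 2.06 ± 0.08 and 1.19 ± 0.09 (SE), with all 4 and both probe sets higher. Slit3 rose by 2.02 ± 0.11 and Ctdspl by 1.15 ± 0.10. Sfmbt2, whose intron holds a large rodent microRNA cluster, fell from 10.79 to 8.94, by 1.85 ± 0.11, with both probe sets lower. The level of a host transcript is not that of its microRNA, which was not measured.

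Relatives of the members among RNA-binding proteins were called in 7 of 13 cases, 5 higher and 2 lower, with a median of 0.05. Their 53.8% lie between the 42.3% of all genes and the 62.8% of genes above the median level, where 11 of the 13 lay. Of 4 Trim family genes chosen as relatives of Trim71, 3 were called higher, as were 20.9% of all genes. Trim32 was at 0.88 ± 0.08 (SE), Trim56 at 0.64 ± 0.11 and Trim3 at 0.58 ± 0.11, each with 1 probe set. Trim2 was at -0.14 and not called (adjusted p = 0.36, limma). Ybx2, which has the cold shock domain that Lin28 proteins also carry, was called higher by 0.32 ± 0.11, but its call was kept in only 4 of 11 alternatives. Fxr2 fell by 0.40 ± 0.08. Without day 3 replicate 2, 4 genes of this list were called.

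The genes most like a member were those with the smallest Euclidean distance between their 4 values after each gene's mean was subtracted. For Lin28a, also the member with the largest called rise, they were Sort1, Bag3 and Fam217b, at distances of 0.028, 0.031 and 0.034 and with rises of 1.18, 1.19 and 1.17. For Dicer1 they were Zfp932, Ppp1r12c and Nrros, at distances of 0.0093, 0.013 and 0.013 and with differences of -0.66, -0.66 and -0.67. With 4 arrays such a likeness describes these samples alone.

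**Figure D5:**
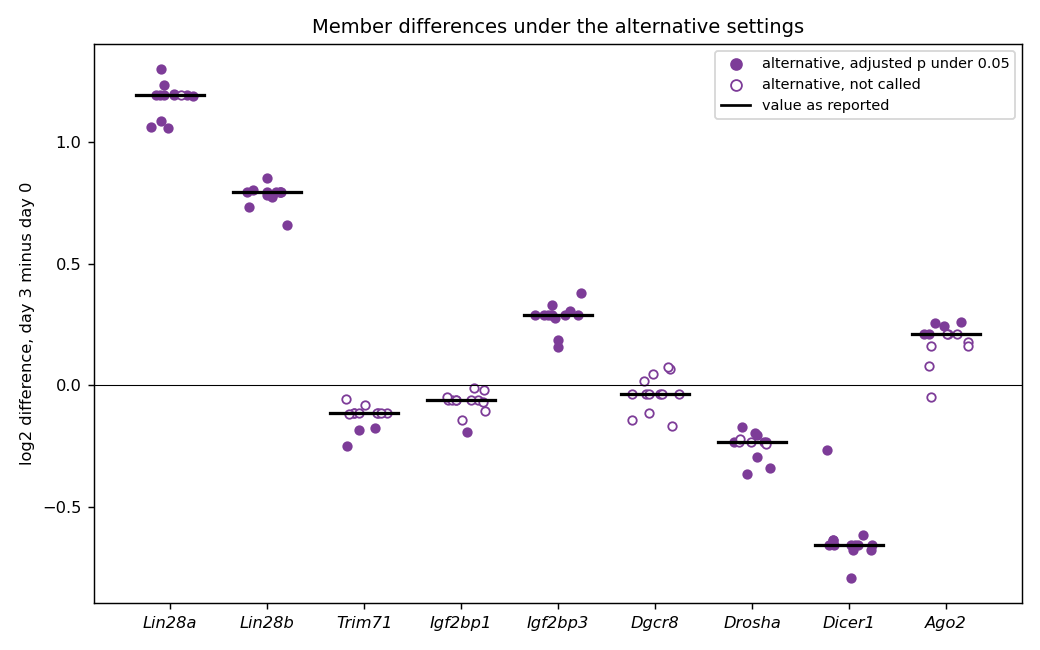
Log2 difference, day 3 minus day 0, of each measured member as reported (bar) and under each alternative setting (points, filled where the adjusted p was under 0.05). All points of Lin28a, Lin28b and Igf2bp3 lie above 0 and all of Dicer1, Drosha, Trim71 and Igf2bp1 below it, whereas those of Dgcr8 lie on both sides and 1 of Ago2 lies below 0.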

How the data were processed

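The authors deposited log2 values for each probe set on each array, made with RMA in R 2.13.0 per the submitters' processing notes; further settings are not given in the sources used here. RMA makes array distributions alike, which hides a change in total RNA per cell, and it shrinks differences at low signal. The number of arrays limits the precision.

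Of 45101 probe sets (64 controls), 34958 had 1 gene symbol, 932 several and 9211 none in the platform annotation, and 34754 of those with 1 symbol had their gene identifier in a RefSeq table of GRCm38.p6, with 0 symbols updated. Differences, day 3 minus day 0, came from limma 3.58.1 in R 4.3.3 (a two-sided moderated test with lmFit and eBayes, intensity trend on) over 18194 genes, and over 45037 probe sets without controls for single probe sets. The fit was tested on simulated data. Members, lists and tests were chosen with earlier results of these data known. In each list the 5 largest differences and called ones of at least 2-fold were to be named, with the 3 genes most like a member. Marker lists are given by counts and the checks only, apart from Tdgf1, the largest fall among the general pluripotency markers. Tut4, Tut7, Xpo5, Apob, the other Argonaute genes, Tnrc6a, Tnrc6c, Trim2, Mycn and Hmga2 were added for their role or family after values were seen. Alternatives were other variance models, renewed normalization, median centring, a level filter, other choices of probe set, a replicate block, each array left out and other thresholds.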

Additional observations from a re-analysis of the deposited data

How the results depend on the processing

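No alternative turned the direction of Lin28a, Lin28b, Igf2bp3, Drosha, Dicer1, Trim71 or Igf2bp1. For these gene values, however, no alternative rested alone on the probe sets that went the other way, Dicer1 1460571_at (0.12) and Igf2bp3 1453957_a_at (-0.39). Over 116 gene values under alternatives, 96 kept direction and call, 11 lost the call, 4 gained it and 5 changed sign. Ago2 changed sign without probe sets that can match several transcripts (-0.048), where 1426366_at alone gave its value. Dgcr8, never called, did so after renewed quantile normalization (0.019) and with the mean of its probe sets (0.065). It also did so with 1 array left out (-0.14 to 0.077). Over 280 values of member probe sets, 222 kept direction and call, 50 lost the call, 1 gained it and 7 changed sign. Among uncalled probe sets, signs changed with 1 array left out for Ago2 1426366_at (-0.14 to 0.045), Igf2bp1 1459825_x_at (-0.095 to 0.028), Dgcr8 1446169_at (-0.57 to 0.13) and Dgcr8 1455311_at (-0.14 to 0.077, and 0.019 after quantile normalization).

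The unmoderated test called 2148 genes (1064 higher, 1084 lower), 3 members and 1 member probe set. By list it called 6 biogenesis partners, 2 precursor decay genes, 7 let-7 targets, 5 host genes, 1 RNA-binding relative, 6 epiblast, 1 general pluripotency, 3 fibroblast, 2 neural and 1 trophectoderm markers. Without the intensity trend the counts were 8 member probe sets, 12 biogenesis partners, 7 precursor decay genes and 2 general pluripotency markers. Above the median level, 3 fibroblast, 2 neural and 3 trophectoderm markers were called, all of those measured there. Without probe sets that can match several transcripts 4 RNA-binding relatives were called, with 8 measured, and against a log2 difference of 1, 1136 genes.

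With 1 array left out, counts ranged from 5845 to 7442 for genes, 4 to 6 for members, 8 to 14 for member probe sets, 10 to 19 for biogenesis partners, 6 to 11 for precursor decay genes, 4 to 7 for RNA-binding relatives, 2 to 4 for general pluripotency and 3 to 6 for neural markers. The lone array of a day is then assumed to vary like the others.

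Same-numbered samples did not deviate together (correlation -0.017 over genes), so the numbers were not taken as pairs. With the replicate block, 7661 genes and 6 members were called, and the block changed no call of a member gene. The low level of Lin28b and of several probe sets limits what can be read from them.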
